A study of Mus musculus with 6 samples.

Results

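Chemokines are small secreted proteins that guide the movement of leukocytes, and their receptors are G-protein-coupled proteins on the responding cells. The genes described here were the protein-coding rows of the deposited count table whose symbol names a CC, CXC or CX3C chemokine or a numbered CC or CXC chemokine receptor. The rule took 57 of the 53801 rows, 42 of ligands and 15 of receptors. These 57 rows carry 52 distinct symbols, because 6 rows lie on unplaced scaffolds of the assembly and mostly repeat symbols such as Ccl19, Ccl21a and Ccl21b. The study sequenced RNA of mouse cells, with 3 libraries from the Ythdf1 knockout and 3 from wild type. Cells of the stromal vascular fraction, the mixed non-adipocyte cells of fat tissue, had been taken from inguinal white fat of mice labelled Ythdf1 knockout or wild type. The cultures of each genotype had then been driven towards adipocytes for 4 days. The Ythdf1 protein is a reader of m6A, a methyl mark on RNA, in the cytoplasm. The labels give neither the construction of the knockout allele nor the age, sex or number of the mice. The fraction is a mixture that can also carry leukocytes into culture, so in these bulk libraries more cells of a type and more RNA per cell cannot be told apart.

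In fat, progenitor and stromal cells are known as strong sources of chemokines such as Ccl2 and Cxcl12. Chemokines with 2 adjacent cysteines (CC) mainly attract monocytes, macrophages, eosinophils and lymphocytes. Those with a residue between the cysteines (CXC) include a neutrophil-attracting branch with a Glu-Leu-Arg (ELR) motif and a branch induced by interferon that attracts T cells. Many of these genes are held in clusters of recently duplicated copies and are switched on by NF-kB.

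The libraries held 16619605 to 20089138 counts, so that 3 counts corresponded to 0.146 to 0.185 CPM (counts scaled by the effective library size). Values below are CPM, given per library or as mean ± SD with n = 3 per genotype. Ythdf1 itself was at 45.1, 42.8 and 43.5 CPM in the knockout libraries, against 63.0, 62.1 and 60.4 CPM in the wild-type libraries. That is a log2 fold change of -0.50 with an edgeR adjusted p of 0.000378. Most of the transcript signal therefore remained, and a count over the whole gene checks the labels only in part. Adipocyte markers were higher in the knockout for 10 of 10 genes. Of 11 progenitor and fibroblast markers 8 were lower and 0 higher. Over all genes tested, 22.6% were higher and 21.7% lower at an edgeR adjusted p of 0.05.

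A pair of neighbouring genes of opposite direction is shown first, since a good part of the results turns on such neighbours. Cxcl1 (ENSMUSG00000029380) and Cxcl2 (ENSMUSG00000058427) both lie on the plus strand of chromosome 5 and are 10.8 kb apart. Cxcl1 was lower in the knockout mean without passing the test, whereas Cxcl2 was higher. Cxcl14 (ENSMUSG00000021508), on the minus strand of chromosome 13, had a larger fall than any other ligand with more than 3 counts in every library. The lines below give the 250 bases before the RefSeq start of each gene, 5′ to 3′ on the gene's strand in GRCm38.p6. They cover chr5:90890995-90891244 for Cxcl1, chr5:90903649-90903898 for Cxcl2 and chr13:56296552-56296801 for Cxcl14. Capitals mark matches on either strand to an NF-kB-type motif, searched as GGG, any 5 bases and CC, with overlapping matches joined.
Cxcl1: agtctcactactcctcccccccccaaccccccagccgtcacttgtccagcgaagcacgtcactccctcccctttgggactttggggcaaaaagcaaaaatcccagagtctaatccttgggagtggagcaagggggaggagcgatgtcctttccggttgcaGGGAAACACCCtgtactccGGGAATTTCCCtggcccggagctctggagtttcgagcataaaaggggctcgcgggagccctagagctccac
Cxcl2: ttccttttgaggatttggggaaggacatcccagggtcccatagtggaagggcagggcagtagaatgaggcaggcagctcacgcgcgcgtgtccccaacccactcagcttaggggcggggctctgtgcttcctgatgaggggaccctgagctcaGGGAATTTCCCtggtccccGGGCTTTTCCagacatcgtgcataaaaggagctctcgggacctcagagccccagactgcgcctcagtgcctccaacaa
Cxcl14: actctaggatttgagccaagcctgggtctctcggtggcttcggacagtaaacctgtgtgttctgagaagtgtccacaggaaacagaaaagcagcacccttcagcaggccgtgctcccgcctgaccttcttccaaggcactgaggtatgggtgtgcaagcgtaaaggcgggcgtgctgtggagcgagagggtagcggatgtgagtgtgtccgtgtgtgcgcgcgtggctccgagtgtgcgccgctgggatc

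The Cxcl1 and Cxcl2 stretches share the 11 bases GGGAATTTCCC, which begin 71 bases before the start of Cxcl1 and 97 bases before that of Cxcl2. The same 11 bases are also found before Cxcl3 of the same cluster, beginning 73 bases before its start, so they are not particular to the pair. These letters occur in 11 of the 27025 promoters of the RefSeq table (0.0407%). The looser NF-kB-type motif occurred in 45.4% of all promoters of that length and in 11 of the 18 tested chemokine and receptor genes with an entry. The Cxcl14 stretch held none. An interferon regulatory factor motif, searched on both strands as GAAA, any 2 bases and GAAA, occurred in 3.04% of all promoters. Among the 18 genes it was found in Cxcl10 and Cxcl14. The letters TATAAA on the gene's strand were present in 7 of the 18 genes and in 8.12% of all promoters. Such matches describe the letters and do not show binding.

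Of the 57 rows, 27 passed the low-count filter, 24 of ligands and 3 of receptors. The other 30 rows never exceeded 18 counts in a library, and 14 of them had 0 counts in all 6. Ccl20 reached the filter's minimum in all 3 libraries of wild type only, and Ccr10 in all 3 of the knockout only. In edgeR's quasi-likelihood test at an adjusted p of 0.05, 5 of the 27 genes were higher in the knockout and 7 were lower. These 12 make 44.4%, where 44.3% of all 14816 genes tested passed, 22.6% higher and 21.7% lower, and 47.2% of the protein-coding genes. The count of calls was thus at the background of this comparison, and what follows describes which ligands they were. The knockout and wild-type values did not overlap for 15 of the 27 genes (55.6%), against 55.2% of all genes. Among the 27, 10 passed with a change of 2-fold or more (37.0%), against 15.6% of all genes. The median log2 fold change was 0.14 among the 27 and 0.01 over all genes, and the median absolute value was 0.91 against 0.36.

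**Figure D1:**
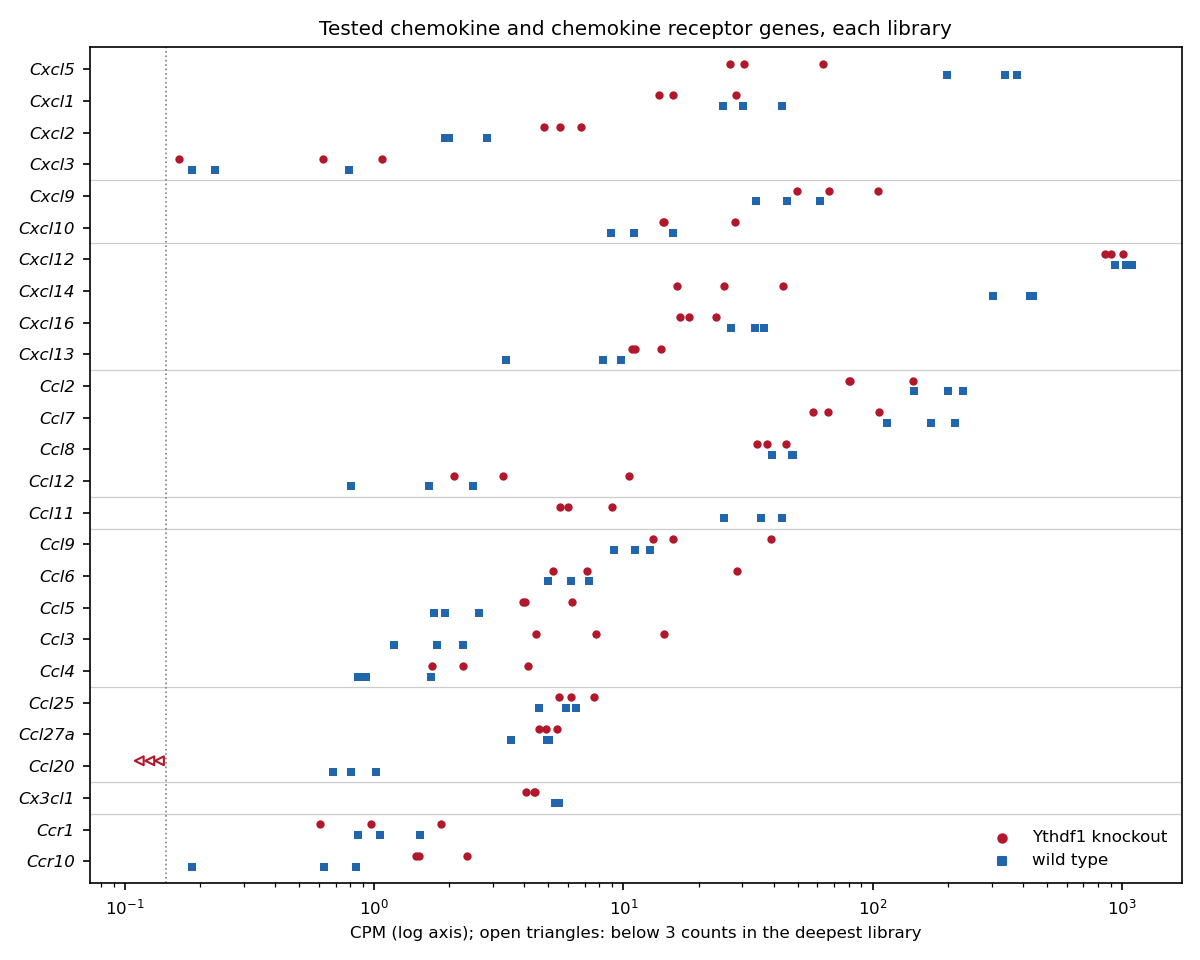
Level of the tested genes shown, in CPM on a log axis, grouped by role, with circles for the 3 knockout libraries and squares for the 3 wild-type libraries; the dotted line is 3 counts in the deepest library. Cxcl14 and Cxcl5 separate widely, while the knockout and wild-type values of Cxcl12 and Ccl8 overlap.

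Per kb of exon, the order of the ligands differed between the genotypes. In the knockout the highest levels were Cxcl12 at 113 ± 9.93, Ccl7 at 95.5 ± 32.2, Ccl2 at 89.8 ± 32.8 and Ccl8 at 76.1 ± 10.6 CPM per kb. Neighbours in that order lay within their spread. In wild type they were Cxcl14 at 214 ± 40.6, Ccl7 at 208 ± 62.6, Ccl2 at 169 ± 37.4, Cxcl5 at 164 ± 51.1 and Cxcl12 at 125 ± 10.3 CPM per kb, and again neighbours lay within their spread. Cxcl14 ranked 7 in the knockout and 1 in wild type. As a share of the ligand signal per kb, Cxcl14 took 2.85% ± 0.755 in the knockout and 19.8% ± 0.511 in wild type, and Cxcl5 took 3.92% ± 0.828 against 14.97% ± 2.05. Cxcl12 took 25.3%, 23.1% and 17.5% in the knockout, against 9.22%, 11.7% and 15.1% in wild type, without overlap. A share also rises where other ligands fall, and the CPM of Cxcl12 overlapped between the genotypes. The shares of Ccl2 were 16.7% ± 1.27 against 15.6% ± 0.589 and those of Ccl7 17.8% ± 1.28 against 19.1% ± 2.36, within the spread of the libraries. The ligand CPM without Cxcl12 summed to 410, 408 and 734 in the knockout libraries, against 1525, 1420 and 987 in the wild-type libraries. No knockout sum reached a wild-type sum. The fall of the sum mainly reflects Cxcl14, with means of 28.5 CPM in the knockout and 391 CPM in wild type, and Cxcl5, with 40.2 and 306 CPM. Of the 24 tested ligands 7 passed as lower and 4 as higher.

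**Figure D2:**
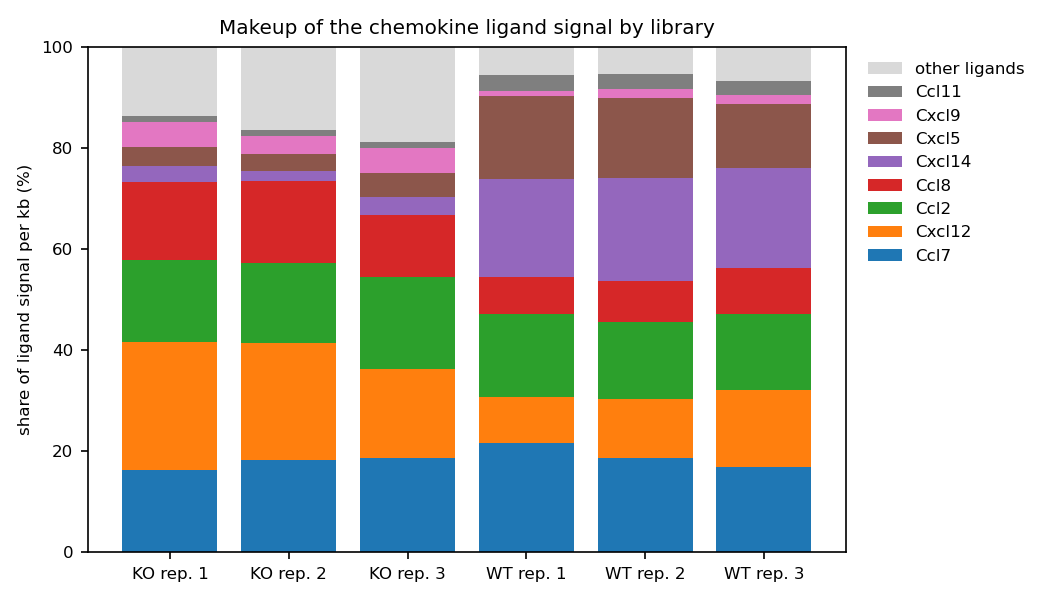
Share of each of 8 ligands in the summed ligand signal per kb of exon, in percent, for the 3 knockout (KO) and 3 wild-type (WT) libraries. Cxcl14 averages 2.85% in the knockout and 19.8% in wild type, and Cxcl12 takes 17.5% to 25.3% against 9.22% to 15.1%.

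The ELR CXC ligands, which attract neutrophils, did not move together. Cxcl5 (ENSMUSG00000029371, chr5:90759360-90761624, plus strand) was at 30.5, 26.9 and 63.4 CPM in the knockout libraries, against 379, 340 and 199 CPM in the wild-type libraries. The genotypes did not overlap, although replicate 3 was the highest of the knockout and the lowest of wild type. Cxcl5 fell by 2.92 ± 0.43 (SE) on the log2 scale, with an edgeR adjusted p of 0.00282. Cxcl2 had 4.78, 5.57 and 6.73 CPM in the knockout and 2.83, 1.92 and 2.0004 CPM in wild type. All 3 knockout values lay above the wild-type values, and Cxcl2 rose by 1.34 ± 0.24 (edgeR adjusted p = 0.000872). Cxcl1 was at 13.9, 15.9 and 28.2 CPM in the knockout and at 43.3, 30.3 and 25.0 CPM in wild type. Its genotypes overlapped through knockout replicate 3, and it did not pass (log2 fold change -0.76 ± 0.31, edgeR adjusted p = 0.0912). Without that library it did, at -1.14 with an edgeR adjusted p of 0.00258, and likewise without wild-type replicate 3 (-0.93, edgeR adjusted p = 0.044). Cxcl3 stayed between 0.165 and 1.07 CPM in all 6 libraries and did not pass, and Cxcl15, a lung chemokine, had 0 counts throughout. Their receptor genes Cxcr1 and Cxcr2 also had 0 counts in every library, which limits them to under 0.146 to 0.185 CPM at a floor of 3 counts per library.

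**Figure D3:**
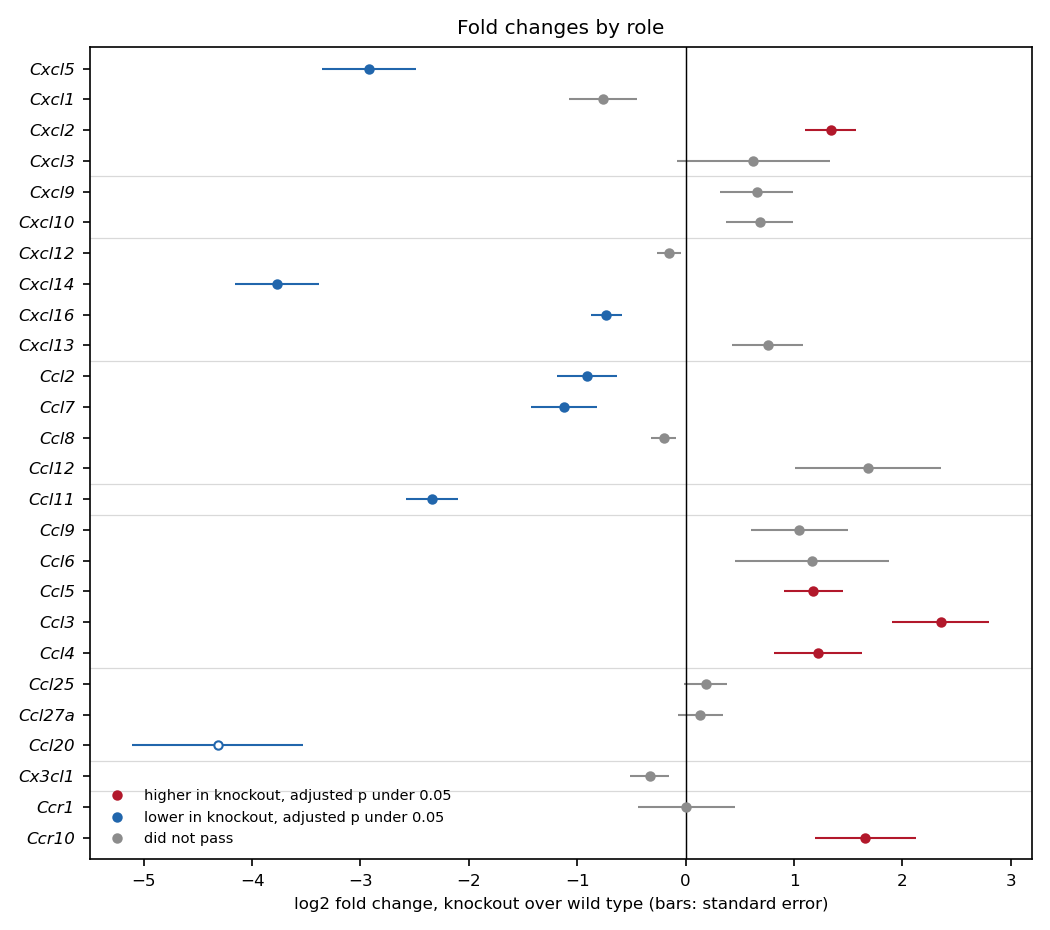
Log2 fold change of the tested genes shown, knockout over wild type, with its standard error, grouped by role; red passed as higher, blue as lower, and grey did not pass. The open symbol is Ccl20, whose fitted value rests on 2 counts in the knockout.

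The ratio of a pair of genes within a library does not depend on the scaling of that library. The Cxcl1 to Cxcl2 ratio of CPM was 2.90, 2.85 and 4.20 in the knockout libraries, against 15.3, 15.8 and 12.5 in the wild-type libraries. The Cxcl5 to Cxcl2 ratio was 6.37, 4.83 and 9.43 in the knockout, against 134, 178 and 99.3 in wild type. On the log2 scale the means differed by -2.15 and -4.33, knockout minus wild type. For each of 4 such ratios, chosen after their values were seen, a two-sided exact permutation test gave p = 0.1 (n = 3 per genotype), the smallest that this design allows. The adjusted value over the 4 was also 0.1.

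**Figure D4:**
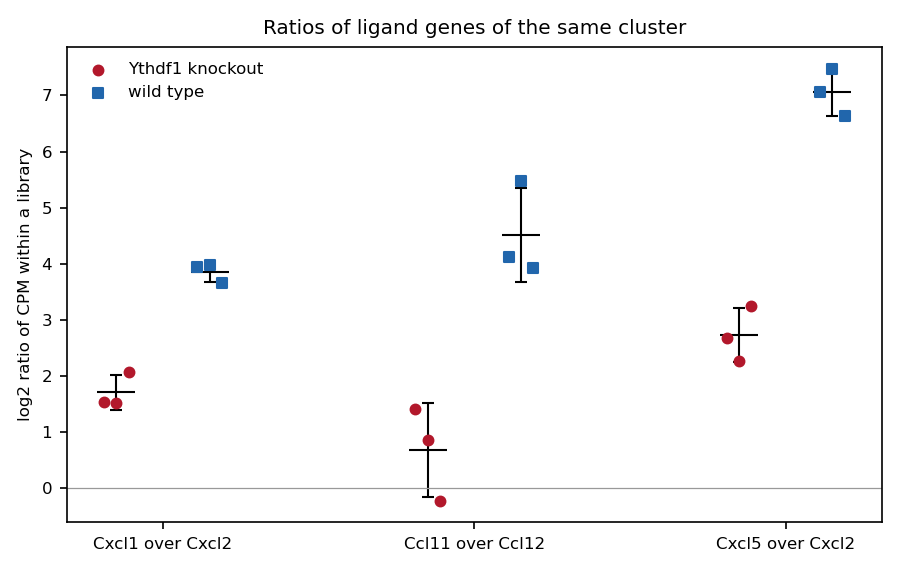
Log2 ratio of CPM of ligand genes of the same cluster within each library, circles for knockout and squares for wild type, with mean and SD (n = 3). Cxcl1 over Cxcl2 averages 1.70 in the knockout and 3.86 in wild type.

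Cxcl9 and Cxcl10, ligands of Cxcr3 that interferon induces, had higher knockout means and did not pass. Cxcl9 was at 66.7, 49.5 and 105 CPM in the knockout libraries, against 34.0, 61.5 and 45.4 CPM in wild type (log2 fold change 0.66 ± 0.34, edgeR adjusted p = 0.167). Cxcl10 was at 14.4, 14.5 and 28.1 CPM, against 8.94, 15.8 and 11.03 CPM in wild type (log2 fold change 0.68 ± 0.31, edgeR adjusted p = 0.114). Both overlapped between genotypes, and knockout replicate 3 was the highest library for each. Cxcl10 passed without wild-type replicate 2 (0.93, edgeR adjusted p = 0.0496). Cxcr3 had 1 count in a single knockout library. Cxcl10 shares 133 bases of exon with Art3 on the other strand, and the strand setting of the counting is not given. Of the 21 genes of interferon signalling and response looked at beside them, 6 were higher and 1 lower, 7 of 21 where 44.3% of all genes passed. They included the transcription factor genes Irf1 and Irf7, with log2 fold changes of 0.56 and 0.82, and the interferon gamma receptor gene Ifngr1, with 0.65. Their edgeR adjusted p-values were 0.000459, 0.00057 and 0.000751. The other receptor subunit, Ifngr2, was the one that fell, by 0.26 on the log2 scale. Irf8, another of the 6 that were higher, reached the filter's minimum in all 3 libraries of the knockout only.

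Among the other CXC ligands, Cxcl14 and Cxcl16 were lower in the knockout. Cxcl14, a ligand of epithelial and stromal cells whose gene spans chr13:56288643-56296551 in GRCm38, had 25.3, 16.4 and 43.7 CPM in the knockout libraries, against 438, 429 and 305 CPM in the wild-type libraries. The lowest wild-type value was thus far above the highest knockout value. Its log2 fold change was -3.77 ± 0.39, a 13.7-fold fall, with an edgeR adjusted p of 0.000427. Of the 11 progenitor and fibroblast markers 8 were lower too, against 21.7% of all genes. Pdgfra (-0.23), Ly6a (0.10) and Dcn (-0.06) did not pass. The summed levels of these markers were 19536, 18981 and 18240 CPM in the knockout and 38819, 42128 and 39694 CPM in wild type. Col1a1 averaged 7479.58 CPM in the knockout and 17723.5 CPM in wild type, and Col3a1 7208.62 and 17403.6 CPM. The fall of the sum therefore mainly reflects these collagen genes. The adipocyte markers, which moved the opposite way, summed to 13824, 17346 and 12410 CPM against 2169, 3354 and 3428 CPM. Their part in the fall of Cxcl14, and in those of Cxcl5 and Ccl11, was not tested.

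Cxcl16, made as a membrane-bound ligand of Cxcr6, was at 16.9, 18.3 and 23.4 CPM in the knockout and at 33.7, 36.6 and 27.1 CPM in wild type. It fell by 0.73 ± 0.15 (edgeR adjusted p = 0.00194) without overlap of the genotypes. Cxcl16 shares 552 bases, 18.3% of its exons, with Zmynd15 on the other strand, a gene with 51 to 74 counts per knockout library and 37 to 49 per wild-type library.

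Cxcl12, which retains haematopoietic cells in their niche through Cxcr4, was the most abundant ligand in CPM. It had 906, 851 and 1011 CPM in the knockout and 934, 1101 and 1042 CPM in wild type. The values overlapped and the gene did not pass (log2 fold change -0.15 ± 0.11, edgeR adjusted p = 0.28). Cxcl13, which attracts B cells, was at 11.2, 14.2 and 10.9 CPM in the knockout and at 3.39, 8.28 and 9.77 CPM in wild type. Its genotypes did not overlap, yet it did not pass (log2 fold change 0.76 ± 0.33, edgeR adjusted p = 0.0918). It passed in 5 of 16 refits under other settings, among them the one without wild-type replicate 3 (1.05, edgeR adjusted p = 0.0298). Cxcl17 had at most 1 count in a library.

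The monocyte-attracting ligands Ccl2 and Ccl7 were lower in the knockout, and their close relative Ccl8 did not pass. Ccl2, also called MCP-1, was at 80.8, 80.5 and 145 CPM in the knockout libraries, against 230, 201 and 146 CPM in wild type. Knockout replicate 3 and wild-type replicate 3 all but met. Ccl2 fell by 0.91 ± 0.28 (edgeR adjusted p = 0.033). Ccl7 was at 57.4, 66.3 and 106 CPM in the knockout and at 214, 172 and 115 CPM in wild type, and fell by 1.12 ± 0.31 (edgeR adjusted p = 0.0247). Both calls ended when knockout replicate 1 or 2 or wild-type replicate 1 or 2 was left out, with edgeR adjusted p-values of 0.072 to 0.186 for Ccl2 and 0.0505 to 0.165 for Ccl7. Without knockout replicate 3 the log2 fold changes were -1.25 and -1.43. Ccl8 was at 34.2, 37.7 and 44.8 CPM in the knockout, against 47.4, 47.8 and 39.3 CPM in wild type (log2 fold change -0.20, edgeR adjusted p = 0.184). Without knockout replicate 3 it passed at -0.32 (edgeR adjusted p = 0.0377). Ccl12, another monocyte attractant, pointed the other way at 2.09, 3.30 and 10.5 CPM in the knockout and 2.49, 0.803 and 1.66 CPM in wild type. It overlapped and did not pass (log2 fold change 1.68 ± 0.67, edgeR adjusted p = 0.0813). The value was 0.70 without knockout replicate 3, and it passed at 2.06 without knockout replicate 1 (edgeR adjusted p = 0.0214).

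Ccl11, or eotaxin-1, attracts eosinophils through Ccr3 and lies between Ccl7 and Ccl12 (ENSMUSG00000020676, chr11:82057823-82062955, plus strand). It was at 5.55, 5.97 and 8.97 CPM in the knockout libraries, against 43.3, 35.7 and 25.3 CPM in the wild-type libraries. The genotypes were well apart, and Ccl11 fell by 2.34 ± 0.24, which is 5.06-fold (edgeR adjusted p = 5.64e-05). The ratio of Ccl11 to Ccl12 was 2.66, 1.81 and 0.852 in the knockout, against 17.4, 44.5 and 15.2 in wild type. The eosinophil ligand Ccl24 had 1 count in a single wild-type library and Ccl26 had 0 counts in all 6. Ccr3 had 7, 0 and 10 counts in the knockout and 2, 0 and 0 in wild type and was not tested.

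The Ccl2 group and the macrophage-inflammatory group occupy separate stretches of chromosome 11, which begin with Ccl2 at 82035571 and with Ccl5 at 83525778 in GRCm38. Of the 5 tested genes of the first stretch 3 were lower and 0 higher, and of the 5 of the second 3 were higher and 0 lower, where 22.6% of all genes were higher and 21.7% lower. With 5 genes each, these counts are a description of the stretches and not a test between them. The Ccl2 to Ccl3 ratio was 18.1, 10.3 and 9.97 in the knockout libraries, against 102, 112 and 122 in the wild-type libraries.

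Ccl3, Ccl4 and Ccl5, inflammatory ligands made by macrophages and T cells, were higher in the knockout. Ccl3 (ENSMUSG00000000982, chr11:83647844-83649355, minus strand) was at 4.45, 7.78 and 14.6 CPM in the knockout libraries, against 2.26, 1.79 and 1.20 CPM in the wild-type libraries. All knockout values lay above those of wild type, and Ccl3 rose by 2.35 ± 0.45 (edgeR adjusted p = 0.00285). Ccl5 was at 3.96, 4.03 and 6.24 CPM in the knockout and at 1.92, 1.73 and 2.63 CPM in wild type, also without overlap, and rose by 1.18 ± 0.27 (edgeR adjusted p = 0.00442). Ccl4 was at 1.70, 2.27 and 4.14 CPM, against 1.70, 0.927 and 0.857 CPM in wild type, so that replicate 1 of the genotypes nearly coincided. Its log2 fold change of 1.22 ± 0.40 passed (edgeR adjusted p = 0.0284), and the call ended without knockout replicate 3 (0.77, edgeR adjusted p = 0.142) or without wild-type replicate 2 or 3 (edgeR adjusted p = 0.0994 and 0.1).

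The rodent macrophage ligands Ccl6 and Ccl9 did not pass. Ccl6 was at 5.22, 7.16 and 28.7 CPM in the knockout, against 7.24, 6.18 and 4.97 CPM in wild type, and Ccl9 at 13.1, 15.7 and 39.2 CPM against 12.7, 11.1 and 9.14 CPM. The genotypes overlapped for Ccl6 and not for Ccl9, and knockout replicate 3 was far above the other knockout libraries for both. With it the log2 fold changes were 1.17 and 1.05, with edgeR adjusted p-values of 0.244 and 0.104, and without it 0.02 and 0.39. Without knockout replicate 1, Ccl9 passed as higher at 1.33 (edgeR adjusted p = 0.0268).

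**Figure D5:**
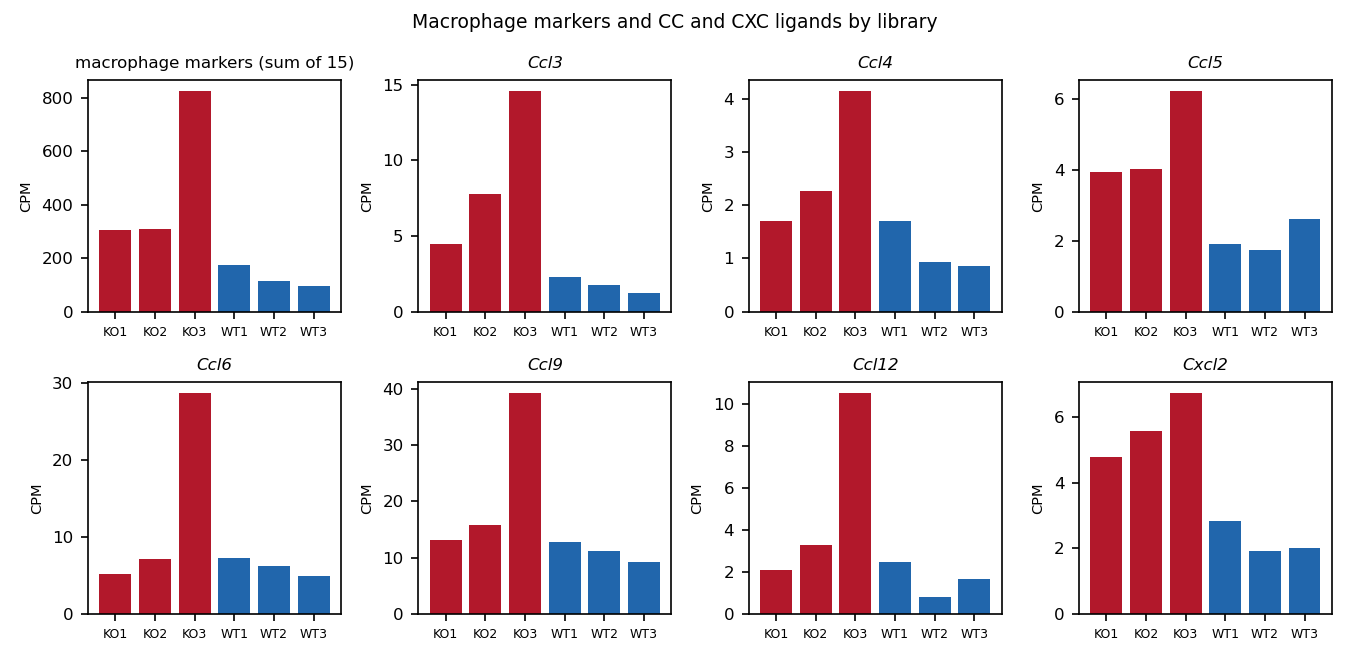
CPM of the summed 15 macrophage markers and of 7 ligands in each library, knockout (KO) in red and wild type (WT) in blue, each panel on its own axis from 0. Replicate 3 is the highest knockout library in every panel, and the marker sum is 826 CPM there.

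Knockout replicate 3 was the highest knockout library for 22 of the 27 genes (81.5%), against 36.2% of all genes tested. Wild-type replicate 1 was the highest of its genotype for 17 of the 27 (63.0%), against 34.8% of all genes. Summed macrophage markers were likewise highest in knockout replicate 3 and in wild-type replicate 1. Of 15 such genes 12 were higher in the knockout and 0 lower, where 22.6% of all genes were higher and 21.7% lower. Among the 12, Aif1 reached the filter's minimum in all 3 libraries of the knockout only. The 15 summed to 306, 309 and 826 CPM in knockout replicates 1 to 3, against 173, 116 and 96.3 CPM in those of wild type. Lyz2 alone, which did not pass (edgeR adjusted p = 0.0988), held 125, 142 and 399 CPM of the knockout sums. In wild type Lyz2 held 103, 55.5 and 40.0 CPM. Adgre1, which encodes F4/80, was at 33.4, 29.9 and 79.4 CPM, against 7.58, 6.12 and 5.43 CPM in wild type. The part of macrophages in the levels of the 7 ligands plotted beside their markers was not tested. Without knockout replicate 3, Ccl3 and Ccl5 still passed as higher, at log2 fold changes of 1.80 and 0.93 (edgeR adjusted p = 0.000499 and 0.016), as did Cxcl2 at 1.20 (edgeR adjusted p = 0.0023). The summed macrophage markers of knockout replicates 1 and 2 were also above those of every wild-type library, although Cd163 alone was below them, at 0.385 and 0.341 CPM against 0.803 to 1.36 CPM.

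Other leukocytes left little signal. Summed levels of 12 T and NK cell markers were 1.21 to 2.78 CPM in the knockout libraries, against 1.79 to 2.46 CPM in the wild-type libraries, with 4 of the 12 at 0 counts in all 6. The 7 B cell markers summed to 2.67 to 3.61 CPM against 1.75 to 3.83 CPM, and the 10 neutrophil markers to 4.20 to 7.55 CPM against 6.52 to 6.92 CPM. Of the 3 neutrophil markers tested 1 was higher and 1 lower. The higher one, Csf3r, had 20, 20 and 49 counts in the knockout and 1, 3 and 0 in wild type. It reached the filter's minimum in all 3 libraries of the knockout only. The lower one, Camp, had 22, 24 and 27 counts in the knockout and 57, 49 and 48 in wild type. Ly6g, below the filter, had 0, 0 and 0 counts in the knockout and 6, 8 and 6 in wild type. The 9 endothelial markers summed to 33.6 to 42.6 CPM in the knockout and 26.6 to 33.3 CPM in wild type, and 7 of the 9 did not pass. The 9 dendritic cell markers summed to 24.4 to 27.6 CPM in the knockout and 50.0 to 61.4 CPM in wild type, where 1 of the 2 tested was lower. That gene, H2-Ab1, made up most of the sum, at 18.3, 21.3 and 17.5 CPM against 40.7, 44.7 and 54.1 CPM. Zbtb46 did not pass and the rest stayed below the filter, so the sum mainly reflects 1 gene. The 7 mesothelial markers summed to 42.1 to 57.2 CPM against 37.4 to 51.2 CPM, and neither of those tested passed.

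The ligands of lymphoid and mucosal homing were low. Ccl20, made by gut epithelium, had 0, 0 and 2 counts in the knockout libraries, against 18, 13 and 12 in the wild-type libraries, and passed as lower (edgeR adjusted p = 0.000981). The summed counts of 2 and 43 give a ratio of 0.0432, with a 95% exact interval from 0.00507 to 0.166 for counting error only. Ccl28, a mucosal ligand, had 3, 4 and 7 counts in the knockout and 16, 14 and 10 in wild type and was below the filter. It entered the test and passed as lower without knockout replicate 3 or wild-type replicate 3 (edgeR adjusted p = 0.0242 and 0.026). It entered there only through its wild-type counts, so these calls could hardly have gone the other way. Some markers of gut epithelium were lower too. Epcam had 0, 1 and 3 counts in the knockout and 77, 69 and 50 in wild type. Of 7 tested gut markers 5 were lower and 0 higher, where 21.7% of all genes were lower and 22.6% higher. Of these 5, Epcam, Vil1, Krt20 and Slc26a3 reached the filter's minimum in all 3 libraries of wild type only. Their calls could therefore hardly have gone the other way. Muc2 had a log2 fold change of -0.33, and Lgals4 (0.34) and Cdh17 (-0.48) did not pass. The summed level of all 10 gut markers was 26.9 to 30.2 CPM in the knockout and 39.9 to 42.8 CPM in wild type. Their part in the Ccl20 result was not tested. Ccl25, a thymus and gut ligand, and the skin ligand Ccl27a did not pass. Ccl25 averaged 6.41 ± 1.07 CPM in the knockout and 5.63 ± 0.949 CPM in wild type, and Ccl27a 4.95 ± 0.407 CPM in the knockout and 4.49 ± 0.841 CPM in wild type. Ccl1, Ccl17, Ccl19, Ccl21a, Ccl21b, Ccl22, Ccl27 and Ccl27b had at most 5 counts in any library. Several of them have near-identical copies, whose reads the counting could have split or dropped.

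Cx3cl1, a membrane-bound ligand of Cx3cr1, was at 4.07, 4.43 and 4.39 CPM in the knockout and at 5.43, 5.31 and 5.49 CPM in wild type. The genotypes did not overlap, but the gene did not pass (log2 fold change -0.33 ± 0.18, edgeR adjusted p = 0.15).

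Receptor RNA was scarce. Of 15 receptor genes 3 were tested, and Ccr10, a receptor for Ccl27 and Ccl28 on skin- and mucosa-homing lymphocytes, was the one that passed. Ccr10 reached the filter's minimum in all 3 libraries of the knockout only, so its call could hardly have gone the other way. It was at 2.36, 1.48 and 1.51 CPM in the knockout libraries, against 0.848, 0.185 and 0.629 CPM in the wild-type libraries, and rose by 1.66 ± 0.47 (edgeR adjusted p = 0.0131). The call ended without knockout replicate 1 (edgeR adjusted p = 0.0632). Ccr1, a receptor of macrophage ligands such as Ccl3, had 11, 17 and 38 counts in the knockout and 27, 17 and 15 in wild type. It did not pass (edgeR adjusted p = 0.991), and knockout replicate 3 was again the highest of its genotype. The Cxcl12 receptor gene Cxcr4 had 8, 2 and 9 counts in the knockout and 15, 8 and 9 in wild type, and Cxcr6 had 7, 2 and 18 against 10, 8 and 5. Both stayed below the filter, as did the other 10 untested receptor genes, of which 3 had 0 counts everywhere.

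The scavenging receptor Ackr3, which takes up Cxcl12, was far above the signalling receptors. It was at 190 ± 9.68 CPM in the knockout and 200 ± 16.7 CPM in wild type and did not pass (edgeR adjusted p = 0.542). Ackr1 and Ackr4 were at 1.42 ± 0.449 against 0.787 ± 0.328 CPM and 0.682 ± 0.221 against 0.981 ± 0.372 CPM, and did not pass. Ackr2, a scavenger of inflammatory CC chemokines, had 8, 20 and 8 counts in the knockout and 1, 0 and 0 in wild type, below the filter. Cx3cr1 had at most 8 counts and the platelet chemokine gene Ppbp at most 2 in a library. Pf4, the other platelet chemokine, which macrophages also express, had 20, 21 and 79 counts in the knockout and 16, 2 and 9 in wild type. It reached the filter's minimum in all 3 libraries of the knockout only, and rose by 1.97 ± 0.66 (edgeR adjusted p = 0.0329). Of 10 tested genes of this wider system 3 were higher and 2 lower, 5 of 10 against 44.3% of all genes. The chemoattractant adipokine gene Rarres2 (chemerin) rose to 734 ± 37.3 CPM in the knockout, against 333 ± 5.80 CPM in wild type (edgeR adjusted p = 3.17e-06). Its receptor gene Cmklr1 rose by 0.64 on the log2 scale. The falls were Dpp4 (-1.26), a peptidase that trims chemokines such as Cxcl10 and Cxcl12, and Cd74 (-1.05), a receptor for the cytokine Mif.

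Among 31 tested genes that induce chemokines or regulate NF-kB, 8 were higher and 3 lower, 11 of 31 against the 44.3% of all genes. The genes of the NF-kB subunits Rela and Nfkb1 had log2 fold changes of 0.09 each and did not pass. The smallest p-values belonged to the receptor genes Il1rap (-1.10), Il17rc (1.27) and Il17ra (0.70) and to the adaptor gene Traf6 (0.52). Il1rap is the accessory chain of the interleukin-1 receptor. Other falls, named here after their values were seen, were Nfkbiz (-0.42) and Tlr2 (-0.42). Tnf, also named afterwards, had 17, 31 and 82 counts in the knockout and 13, 3 and 4 in wild type. It reached the filter's minimum in all 3 libraries of the knockout only, and rose by 2.52 (edgeR adjusted p = 0.00937). Its highest library was again knockout replicate 3. Il6 was at 10.6 ± 6.19 CPM in the knockout and 25.8 ± 10.2 CPM in wild type and did not pass (edgeR adjusted p = 0.0718).

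Of 30 tested genes of chemokine receptor signalling, 11 were higher and 8 lower, 19 of 30 against 44.3% of all genes. Elmo1 and Arrb1, for a Rac activator subunit and beta-arrestin 1, had log2 fold changes of 1.24 and 1.12, and Rgs2, an inhibitor of G-protein signalling, of 1.45. The G-protein subunit gene Gnai3 fell by 0.61. Genes of leukocyte signalling in this list, Dock2, Rac2 and Vav1, had log2 fold changes of 1.98, 2.14 and 2.08 and were chosen for mention after their values were seen. Among the 19, Dock2, Vav1 and Plcb2, all higher, reached the filter's minimum in all 3 libraries of the knockout only. Rgs5, which was lower, reached it in all 3 libraries of wild type only. The macrophage markers described above moved with these leukocyte genes, and the part of the markers was not tested.

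The transcripts of the 27 tested genes were rich in ATTTA, the pentamer of AU-rich elements that mark unstable mRNAs. In the longest protein-coding transcript the median was 2.07 per kb among the 27 and 0.807 per kb over 13148 tested genes. Of the 27 transcripts 16 lay above the upper quartile of all genes, 1.49 per kb. The median was 3.03 per kb for the 5 genes that rose and 2.50 per kb for the 7 that fell. Ccl12 had 9.31 per kb, a density that no other tested gene exceeded. GGACT, a core of the m6A consensus, had a median of 1.06 per kb among the 27 and 1.05 per kb over all genes. Per gene it ran from 0 in Cxcl2, Cxcl3, Ccl4, Ccl8, Ccl12 and Ccl25 to 4.76 per kb in Ccl27a. These are letter counts in annotated transcripts, and no methylation was measured.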

How the data were processed

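RNA of 3 Ythdf1 knockout and 3 wild-type cultures was measured as rRNA-depleted RNA-seq with paired 150 bp reads, per the labels' protocols. The authors deposited raw counts per Ensembl gene, made with STAR and featureCounts on mm10 and GRCm38 per the submitters' processing notes. Neither versions nor the annotation, strand or multi-mapping settings of that step are stated (not given in the sources used here), so counts of close paralogs and overlapping genes are uncertain. Symbols came from GENCODE mouse release 21 (GRCm38), which held 53706 of 53801 identifiers. Lengths are exon unions.

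All genes were fitted with edgeR 4.0.16 (R 4.3.3): filterByExpr (minimum count 10, minimum total 15), TMM, and a 2-sided quasi-likelihood F test with the legacy and robust options. P-values were Benjamini-Hochberg adjusted over 14816 genes, with calls at 0.05. Standard errors are the log2 fold change divided by the root of F. Intervals and floors (3 counts) cover counting error only. The series calls the replicates biological; no label says whether each is a separate mouse. The fit was tested on simulated counts.

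The genes, the lists and the choice of what to describe were made with earlier results of these data known. Full values go to called genes and the most abundant ones, and up to 4 genes are named per wider list, with some further ones (such as Ifngr2, Il6 and Rela) added after their values were seen. Some genes of the family and of the lists are counted but not reported singly here, or are not reported here. Promoter letters are from RefSeq (GRCm38.p6), with entries for 18 of the 27 tested genes. Alternatives used limma 3.58.1 and DESeq2 1.42.0.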

Additional observations from a re-analysis of the deposited data

How the results depend on the processing

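Across 429 refits of single tested genes under the alternatives (other scaling factors, DESeq2, limma-voom, filters, covariates and each replicate left out), 396 kept their side of the threshold, 17 lost a call, 16 gained one and 0 called genes changed sign. Cxcl2, Cxcl14, Cxcl16, Ccl3, Ccl5 and Ccl11 passed in every one of these refits. Ccl20 reached the test only through its wild-type counts and Ccr10 only through its knockout counts, so their calls say nothing of stability. With the replicate number as a block, 10 of the 27 genes were called, 6 higher and 4 lower, against 12, 5 and 7 without it, and Cxcl5, Ccl2 and Ccl7 no longer passed (edgeR adjusted p = 0.0712, 0.174 and 0.19). Same-numbered libraries did not deviate together (correlations -0.127, 0.0117 and -0.144), and not every library correlated best with its own number. The labels name no pairing, and correlations over 3 libraries per genotype cannot settle whether there was one. Requiring a 2-fold change as well left 2317 called genes, 1326 higher and 991 lower, and 10 of those described here, without Ccl2 and Cxcl16. With 1 replicate left out, 10 to 14 of the genes described here were called, 4 to 6 higher and 5 to 10 lower. Without knockout replicate 3 there were 14, 4 higher and 10 lower. Over all genes the calls ran from 5276 to 6674. Cxcl10 passed under DESeq2 (0.68, DESeq2 adjusted p = 0.0339) and Cxcl13 too (0.75, adjusted p = 0.0339). The scaling alternatives moved the median gene by at most 0.06 on the log2 scale. With the longest transcript as length, the 10 highest genes per kb in the knockout came in the same order. Rows below the low-count filter were not tested, so no change in them could be called; without the filter Ccl28 passed (adjusted p = 0.0496).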
